A study of Mus musculus with 16 samples.

Results

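The regions described here are the 807 intervals of mouse liver DNA where binding of the clock factor BMAL1 was called in the male misaligned ZT0 library and in no other. Binding was mapped by ChIP-seq, in which chromatin is pulled down with an antibody and its DNA sequenced. They were chosen from the authors' merged table of 7043 intervals as those with a call in that library and a library count of 1, which is 11.5% of the table. The male misaligned ZT0 library was called in 1860 intervals (26.4%), so 1053 of its intervals were called in at least 1 other library and are named shared below. Being called alone is therefore what chose these intervals, and is not a result.

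For every combination of sex, treatment and time there was 1 library pulled down with an antibody to BMAL1 and 1 with normal IgG, 16 in all. The groups used here are misaligned males at ZT0 (library 3B), misaligned males at ZT12 (4B), misaligned females at ZT0 (7B) and at ZT12 (8B), and controls of the same sexes and times, males at ZT0 (1B) and ZT12 (2B) and females at ZT0 (5B) and ZT12 (6B). ZT0 is lights on and ZT12 lights off in a 12 h light and 12 h dark cycle. All animals were C57bl6 mice of 8 to 16 weeks, controls included, that ate a diet with 42% of calories from fat from the first week of the control or misalignment schedule. The schedule itself is not described in the labels. Each library pooled snap-frozen liver of 3 to 4 mice, so animals cannot be told apart, and whole liver holds other cell types beside hepatocytes. With 1 library per group no difference between libraries can be set against replicate error, and regions of 1 library are not replicates of a condition. No test was therefore run between sets of regions. The 95% intervals below are exact Clopper-Pearson intervals and cover counting error only. A missing call is not a measured zero, since the files used here hold no signal where a library has no peak.

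CLOCK and BMAL1 bind DNA as a pair through the E-box, a short palindrome whose canonical form is CACGTG. In liver they switch on the Per and Cry repressors and the Rev-erb receptors, which feed back on them, and many genes of lipid, glucose and bile acid metabolism. BMAL1 binding in mouse liver is known to peak in the light phase.

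The sequences below come from the RefSeq promoter table for GRCm38.p6, which runs from 250 bases before to 50 after each start site. They show the 6 strongest regions whose summit lay in such a window of a protein-coding gene that also held CACGTG, printed in capitals, each 5′ to 3′ on the strand of the gene. Where the E-box lay past the start site only 30 bases are given.

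Pdpr, chr8:111094516-111094635, plus strand: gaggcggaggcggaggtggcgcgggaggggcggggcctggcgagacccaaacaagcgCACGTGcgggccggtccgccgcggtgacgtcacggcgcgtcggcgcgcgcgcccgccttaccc
Ubap2, chr4:41275136-41275255, minus strand: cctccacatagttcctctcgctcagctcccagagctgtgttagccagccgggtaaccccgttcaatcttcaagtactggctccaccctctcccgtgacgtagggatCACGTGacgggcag
Sirt1, chr10:63339088-63339207, minus strand: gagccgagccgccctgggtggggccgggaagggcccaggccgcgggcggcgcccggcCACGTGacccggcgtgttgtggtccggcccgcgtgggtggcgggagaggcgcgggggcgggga
G3bp2, chr5:92137701-92137730, minus strand: gccgcggtcaccCACGTGgtcgcagccctg
Trmt61a, chr12:111678118-111678147, plus strand: ccgccgtggagcCACGTGtggagccgggag
Cipc, chr12:86947223-86947342, plus strand: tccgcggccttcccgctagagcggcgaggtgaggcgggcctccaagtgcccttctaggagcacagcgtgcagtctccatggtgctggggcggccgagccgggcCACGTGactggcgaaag

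The next pair are the strongest regions with a summit in a protein-coding promoter window and no CACGTG in any window at the summit, with GGGCGG or its reverse complement CCGCCC, the GC box, in capitals.

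Pcgf5, chr19:36409564-36409683, plus strand: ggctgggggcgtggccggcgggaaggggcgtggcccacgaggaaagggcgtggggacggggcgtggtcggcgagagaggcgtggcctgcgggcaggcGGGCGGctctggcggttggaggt
Cnst, chr1:179546284-179546403, plus strand: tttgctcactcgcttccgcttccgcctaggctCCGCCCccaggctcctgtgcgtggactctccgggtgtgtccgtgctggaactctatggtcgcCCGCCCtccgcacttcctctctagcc

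Of the 19 regions with an E-box in the promoter window, those at Sirt1 and Cipc belonged to genes of the list of clock-linked regulators. At Sirt1, which encodes a NAD-dependent deacetylase that acts on the clock proteins, the E-box centre lay 19.5 bases from the summit (-log10 q 9.44, fold enrichment 4.90, 31 fragments). The fold enrichment is the authors' value of the summit over local background, and the fragments were recovered from it and the authors' p-value. At Cipc, whose product represses CLOCK and BMAL1, the E-box was 12.5 bases from the summit (-log10 q 6.07, fold 3.86, 29 fragments). At Pdpr, the regulatory subunit of pyruvate dehydrogenase phosphatase, it was 31.5 bases away (-log10 q 13.8, fold 6.02, 35 fragments). No library other than male misaligned ZT0 had a peak within 50 kb of these 3 regions, as was so for 414 (51.3%) of all the regions. The nearest were 56860 bp away at Sirt1, 58040 bp at Cipc and 50778 bp at Pdpr.

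Of the 807 regions, 112 had their summit in a RefSeq promoter window, and 19 of these held CACGTG (16.96%, 95% interval 10.5 to 25.2). In the shared intervals of the same library it was 99 of 262 (37.8%, 31.9 to 44.0). It was 22 of 90 (24.4%, 16.0 to 34.6) in intervals called only in female misaligned ZT0 and 143 of 542 (26.4%, 22.7 to 30.3) in those called only in male misaligned ZT12. Among all 32851 promoter windows of the table, 7.15% held the motif. Counted by window, as that share is, the regions had it in 24 of 141 windows (17.02%, 11.2 to 24.3). The share thus lay above that of all promoters and below that of the shared intervals, with intervals that did not overlap either. Its interval did overlap those of the sets called only in another misaligned library.

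Within the male misaligned ZT0 library the share with an E-box was higher in intervals called in more libraries. It was 16.96% in the 112 regions called in this library alone and 26.7% (17.9 to 37.0) of 90 intervals called in 2 libraries. It was 37.4% (28.5 to 46.9) of 115 called in 3 or 4 and 56.1% (42.4 to 69.3) of 57 called in 5 to 8. Strength differs along the same order. Among intervals with -log10 q between the quartiles of the 807 regions, a comparison chosen after seeing the data, 7 of 48 regions (14.6%, 6.07 to 27.8) and 13 of 43 shared intervals (30.2%, 17.2 to 46.1) held an E-box, and these intervals overlap. In the same range it was 11 of 39 (28.2%, 15.001 to 44.9) in intervals called only in female misaligned ZT0. It was 29 of 170 (17.1%, 11.7 to 23.6) in those called only in male misaligned ZT12, against 26.4% over all 542 of that male set. The range narrows strength but does not match it, and the female and male sets have -log10 q from their own lists.

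**Figure D1:**
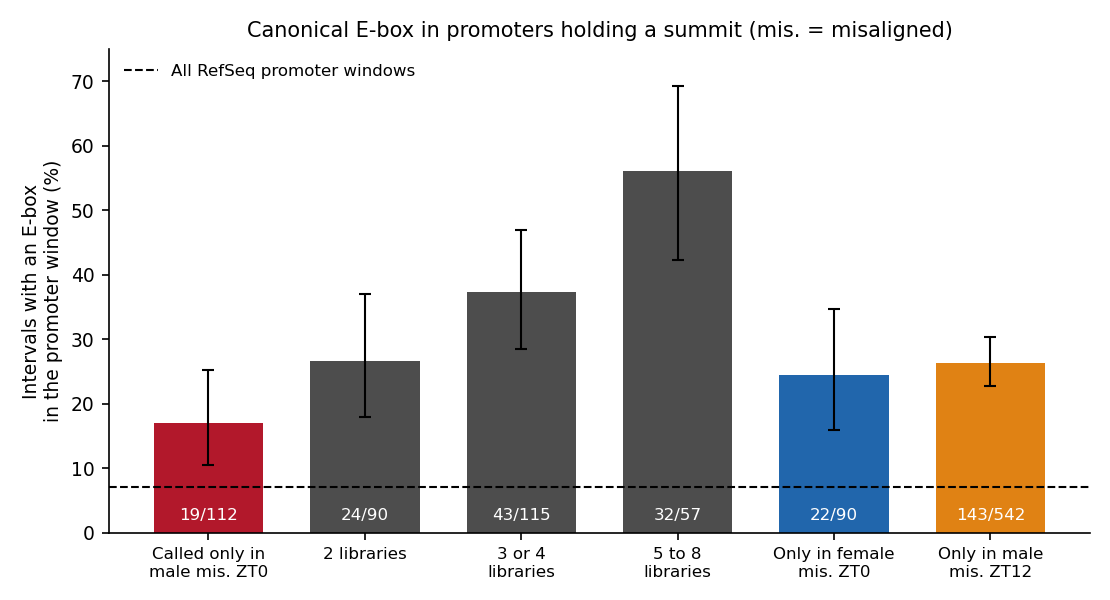
Percentage of intervals with CACGTG in the RefSeq promoter window that holds the summit (y axis), for the regions called only in male misaligned ZT0, the intervals of that library called in 2, 3 or 4 and 5 to 8 libraries, and the sets called only in female misaligned ZT0 or male misaligned ZT12. Bars are shares, error bars exact 95% intervals, and the dashed line is all promoter windows at 7.15%. The regions stand at 16.96%, the lowest bar. Strength was not matched between the bars.

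Where an E-box was present, it lay at a median of 45.5 bases from the summit in the 19 regions, and in 10 of them within 50 bases. Only the window holding the summit was searched, which keeps these distances short, and no distance for a motif placed at random was computed. In the shared intervals the median was 28.5 bases and 66 of 99 lay within 50 bases. The closest was at Megf9, 1.5 bases from the summit (-log10 q 5.03, fold 3.94). Others within 25 bases were at the threonyl-tRNA synthetase gene Tars (14.5 bases), at Vapa, a protein of endoplasmic reticulum contact sites (20.5), at Rhobtb3 (21.5), at the U1 snRNP gene Snrpa (21.5) and at Utp25 (24.5). The Snrpa region lay 256 bp from a peak of another library. The window of Cipc is shared by Gm32934, and that of G3bp2, a stress granule protein, by Uso1 on the other strand.

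The promoters under the regions were rich in G and C and in CpG, as were those of the other sets. The median GC content was 64.3% in the 141 windows of the regions, 67.0% in the 312 windows of shared intervals and 52.7% in all windows. The median ratio of observed to expected CpG was 0.825 in the regions, 0.872 in shared intervals and 0.384 in all windows. The GC box GGGCGG was in 70.9% (62.7 to 78.3) of the windows of the regions, 82.1% (77.3 to 86.1) of those of shared intervals and 35.7% of all. The ETS core CCGGAAG was in 17.7% of the windows of the regions, 17.6% of those of shared intervals and 8.86% of all. TATAAA was in 4.26% of the windows of the regions, 3.53% of those of shared intervals and 13.6% of all. CCAAT was in 44.0% of the windows of the regions, 42.6% of those of shared intervals and 37.4% of all. The cyclic AMP response element TGACGTCA was in 3.55% of the windows of the regions, 5 of 312 (1.603%) of those of shared intervals and 1.79% of all. AGGTCA, the core motif of ROR and REV-ERB receptors, was in 7.80% of the windows of the regions, 12.5% of those of shared intervals and 16.3% of all. TTATGTAA, a D-box bound by PAR-bZIP factors, was in 0 of 141 windows of the regions (exact upper bound 2.58%), 5 of 312 (1.603%) of those of shared intervals and 0.938% of all. Both strands were searched for each motif. CANNTG, the wider E-box class that takes in CACGTG, was in 61.7% of the windows of the regions, 70.5% of those of shared intervals and 72.3% of all. How far base composition goes with the E-box share was not tested.

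By strength, the regions filled the lower part of the list. Their median -log10 q was 3.29 (quartiles 2.39 and 4.72, range 1.31 to 18.5), against 7.35 (4.52 and 13.6, range 1.35 to 361) in the shared intervals. The median fold enrichment was 3.44 (3.08 and 3.84) in the regions and 4.13 (3.42 and 5.25) in the shared intervals. A median of 22 fragments (15 to 73) stood at the summit of a region over a local background of 5.41, against 32 fragments over 6.76 in a shared interval. Each of the 807 regions was made of 1 peak, with a median width of 330 bp, against 391 bp in shared intervals. Calls chose the regions and rest on these values, which are therefore given as a description.

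None of the 100 strongest intervals of the library by -log10 q was among the regions. The regions were 29 of the 400 intervals ranked 101 to 500 (7.25%), 187 of the 500 ranked 501 to 1000 (37.4%), 313 of the 500 ranked 1001 to 1500 (62.6%) and 278 of the 360 ranked 1501 to 1860 (77.2%). The 5 weakest regions, Adk and Arhgap23 among them, had -log10 q of 1.31 to 1.35. The 5 strongest intervals called in 1 other library were nearest Zfp395 (-log10 q 30.4), 1700001C19Rik (27.8), Ripk2 (19.9), Bcl2l1 (19.7) and Gphb5 (18.6), all called also in male misaligned ZT12. The highest -log10 q of a region was 18.5. It lay below these 5, which were picked as the highest of 467 such intervals (median 5.14, range 1.41 to 30.4). The ranges of the regions and of those 467 intervals overlapped.

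**Figure D2:**
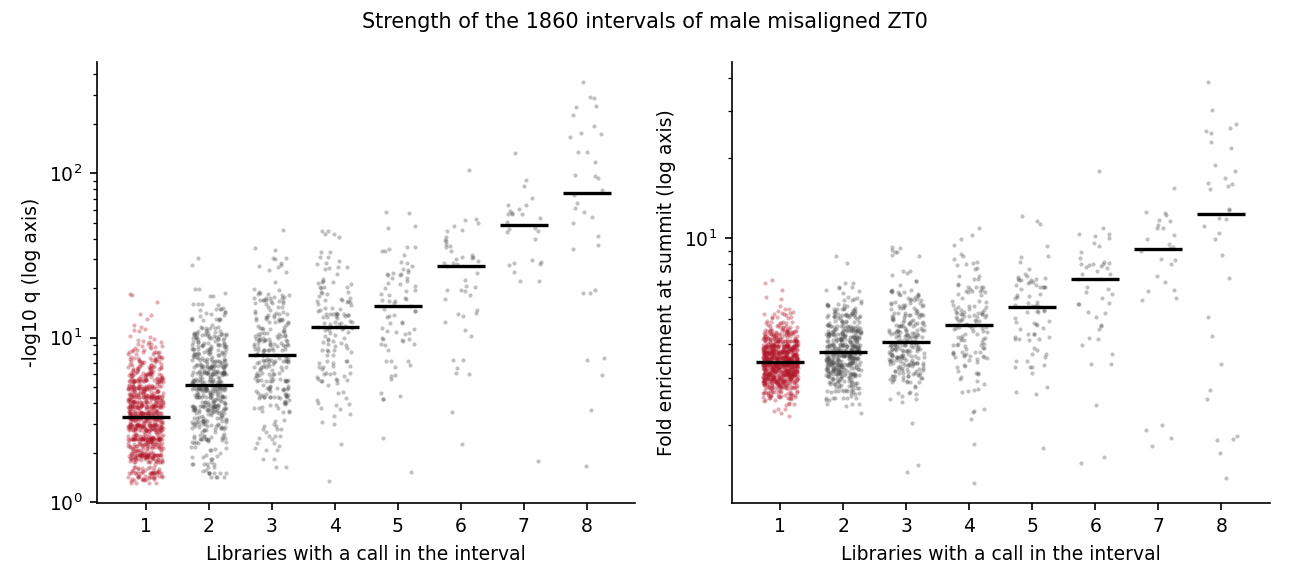
Values of the authors' peak caller for the 1860 intervals of male misaligned ZT0, -log10 q on the left and fold enrichment on the right, both on log axes, by the number of libraries with a call (x axis). Each point is 1 interval, in red the 807 called in this library alone, and black lines are medians. The medians of -log10 q are 3.29 with 1 library, 5.14 with 2 and 76.4 with 8.

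The lowest -log10 q called was alike in the lists, 1.31 in male misaligned ZT0 and 1.30 to 1.42 in the other 7. The lowest p-values called differed. The lowest -log10 p called was 4.55 in male misaligned ZT0, against 4.15 in male misaligned ZT12, 4.75 in female misaligned ZT0, 5.45 in female misaligned ZT12, 5.42 in male control ZT0 and in male control ZT12, 5.16 in female control ZT0 and 5.52 in female control ZT12. Of the 807 regions, 102 (12.6%) had a -log10 p below the lowest in the male control ZT0 list and 132 (16.4%) below the lowest in the female control ZT12 list. The other regions were not below those lowest values. A p-value in 1 library does not give that of the same site in another, so these counts do not show which regions those lists could have called. The read depth is unknown. The lowest local background of a list, in fragments, was 4.32 in male misaligned ZT0 and 4.25 to 6.16 in the other 7 lists. The part of depth in a missing call was not tested.

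The rule left out intervals with a call of another library, so an overlap was excluded in advance. No gap for sites placed elsewhere was computed, so the gaps are a description. The gap to the nearest peak of another library was at most 1000 bp for 46 regions (5.70%), at most 5000 bp for 101 (12.5%) and at most 10000 bp for 159 (19.7%). It was at most 50000 bp for 393 (48.7%) and over 100000 bp for 264 (32.7%). Of the 101 within 5000 bp, the nearest peak was of male misaligned ZT12, the longest list with 5542 peaks, in 78 and of female misaligned ZT0 in 19. The shared intervals of the library followed the same lists, as 985 of 1053 were called in male misaligned ZT12, 548 in female misaligned ZT0 and 267 in male control ZT0. With male misaligned ZT12 left out, 1222 intervals would be called in male misaligned ZT0 alone.

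**Figure D3:**
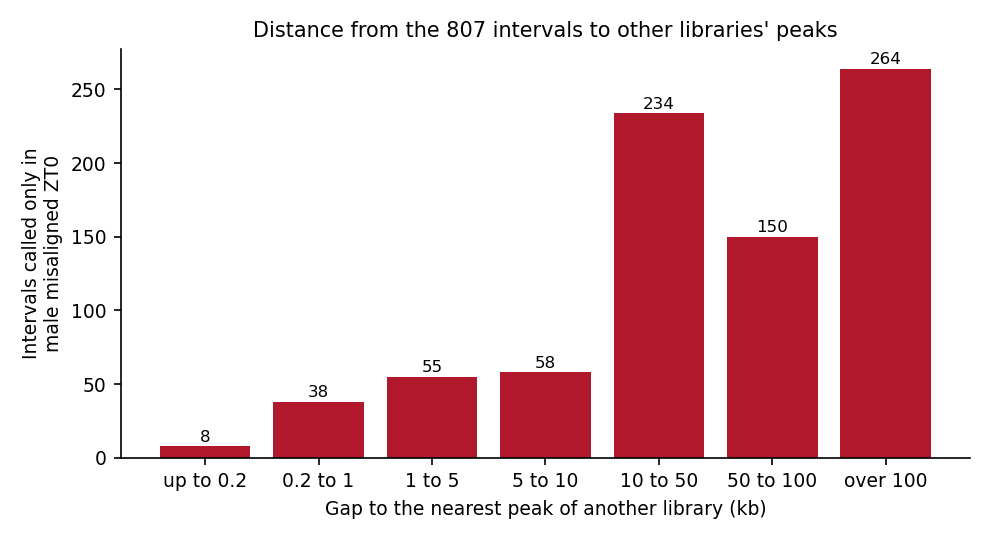
Number of the 807 regions (y axis) by the gap in kb to the nearest peak of any of the other 7 libraries (x axis). The bars hold 8, 38, 55, 58, 234, 150 and 264 regions, so that 648 lie over 10 kb away.

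A region lay within 10 kb of the transcription start site (TSS) of 456 genes by the authors' nearest gene. Of these, 373 (81.8%) had no interval within 10 kb other than the regions themselves. The other 83 genes had an interval there that was called in another library, which was male misaligned ZT12 for 72 genes, female misaligned ZT0 for 28 and a control library for 15. The share of all genes with an interval of another library was not counted, so 81.8% cannot be read as high or low. Intervals called only in male misaligned ZT12 lay within 10 kb of the TSS of 6.58% of all protein-coding genes.

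Fewer regions were at promoters than shared intervals were. By the authors' class, 250 of 807 regions (31.0%, 27.8 to 34.3) were at a promoter, against 544 of 1053 shared intervals (51.7%, 48.6 to 54.7). The share was 178 of 396 (44.9%) in intervals called only in female misaligned ZT0, 1083 of 4106 (26.4%, 25.03 to 27.75) in those called only in male misaligned ZT12, and 33.6% over all 7043. Introns held 299 of the regions (37.1%, 33.7 to 40.5) and 241 of the shared intervals (22.9%, 20.4 to 25.5). Intergenic sequence held 188 (23.3%, 20.4 to 26.4) of the regions and 186 (17.7%, 15.4 to 20.1) of the shared intervals, and the rest were in 43 exons and at 27 transcript ends. In the range of -log10 q between the quartiles of the regions the promoter share was 27.3% (23.0 to 31.9) in 407 regions and 43.8% (37.2 to 50.5) in 224 shared intervals. It was 44.4% (37.1 to 52.0) in 180 intervals called only in female misaligned ZT0 and 25.1% (23.0 to 27.4) in 1520 called only in male misaligned ZT12. This range was chosen after seeing the data. In it the share of the regions was below those of the shared intervals and of the female set beyond counting error. Its interval overlapped that of the male set. The range did not make strength equal, as the median -log10 q within it was 3.30 in the regions and 3.70 in the shared intervals. It was 3.38 in the female set and 3.47 in the male set, each from the list of its own library. Over all intervals, the share of the regions was above that of the male set, with intervals that did not overlap.

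**Figure D4:**
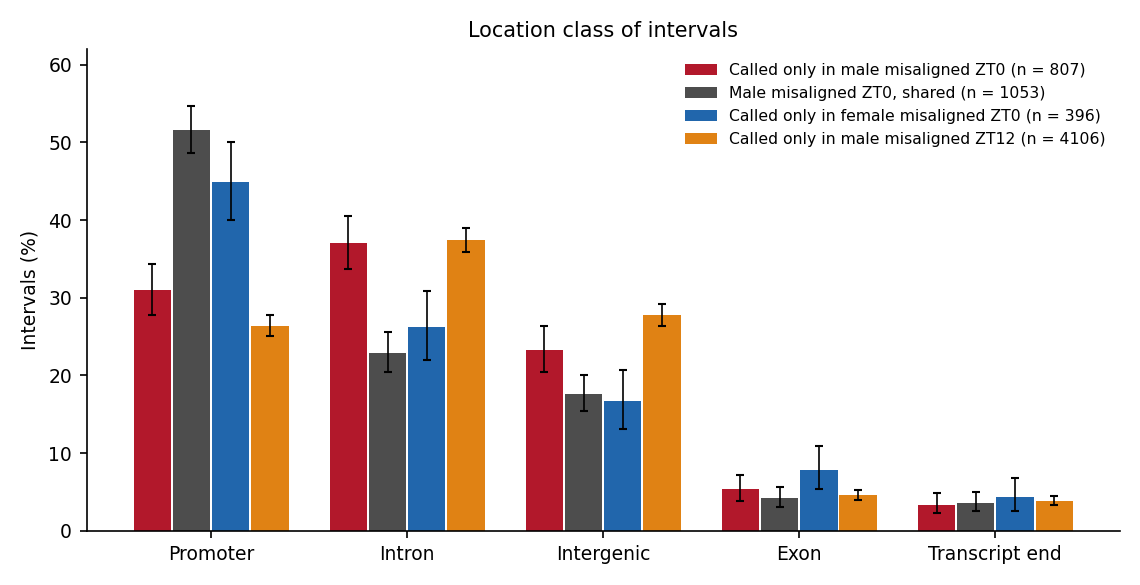
Percentage of intervals in each location class of the authors' annotation (y axis, with exact 95% intervals), for regions called only in male misaligned ZT0 (red), shared intervals of that library (grey), and intervals called only in female misaligned ZT0 (blue) or male misaligned ZT12 (orange). At promoters the regions stand at 31.0% and the shared intervals at 51.7%, and at introns at 37.1% and 22.9%.

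Within the regions, the median -log10 q was highest in the 43 exonic regions (4.02, median fold 3.57) and next in the 250 promoter regions (3.87, median fold 3.49). It was 3.26 in the 188 intergenic regions, 3.26 in the 27 at transcript ends and 2.94 in the 299 intronic regions. Of the 405 regions at or above the median -log10 q, 37.8% (33.0 to 42.7) were at promoters, against 24.1% (20.03 to 28.6) of the 402 below it.

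The 20 strongest regions had -log10 q from 9.19 to 18.5, fold enrichments from 4.39 to 6.95 and 28 to 43 fragments, and 16 of them were at promoters. The strongest lay on chromosome 9 from 62145185 to 62145521 (GRCm38, as all coordinates here), between genes, at -22759 bp from Mir5133 and -22766 bp from the start of Glce, where a minus sign means upstream (-log10 q 18.5, fold 6.81, 41 fragments). It was followed by the promoter of Pcgf5, a subunit of Polycomb repressive complex 1 (chromosome 19, 36409229 to 36409835, -log10 q 18.2, fold 6.41). The authors' nearest gene there is Gm23170, at -24635 bp. The region at the promoter of Akap9, an anchor of protein kinase A (chromosome 5, 3928132 to 3928508, -log10 q 16.6), had the highest fold enrichment of all, 6.95, with its summit 83 bp inside the RefSeq start.

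Among the next strongest, some lay by the starts of a pair of genes. The Cnst region (chromosome 1, 179546100 to 179546509, -log10 q 13.9) had its summit at -68 bp from Tfb2m, a factor of mitochondrial transcription. The region at 2810004N23Rik (chromosome 8, 124862997 to 124863453, -log10 q 13.0) had it 76 bp inside Gnpat, an enzyme of ether lipid synthesis. Safb2 (12.0), Tmbim6, an inhibitor of cell death in the endoplasmic reticulum (11.6), Zfyve9, which anchors SMAD proteins in TGF-beta signalling (11.3), and Ubap2 (11.1, with Gm12401 as the authors' nearest gene) came next by -log10 q. They were followed by 1700096K18Rik (10.9), the centriole gene Spice1 (10.2), Spsb1 (10.1), Cmas, an enzyme of sialic acid activation (9.76), Mllt10 (9.71) and Gm27553 (9.60), whose region lay 1447 bp inside the COPII coat gene Sec31a. The last of the 20 were Sirt1 (9.44), the protein phosphatase gene Ppp1cb (9.38), Dcakd (9.20) and the ubiquitin ligase gene Cblc (9.19). The authors' distance is to 1 TSS per gene, and of the 250 promoter regions 66 were given a nearest TSS over 1 kb away. For 44 of these 66 a RefSeq protein-coding TSS lay within 1 kb of the summit.

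None of the core clock genes had a region within 10 kb of the TSS. That is 0 of 22, where 1.5% of all 21900 RefSeq protein-coding genes had a region within 10 kb. A count of 0 of 22 is too small to read against 1.5%. A shared interval of the same library lay there for 13 of 22, where 2.23% of all genes had one. The rule parts regions from shared intervals by the number of libraries with a call, so this contrast is not independent of the rule. Intervals called only in female misaligned ZT0 gave 0 of 22 (0.868% of all genes), and those called only in male misaligned ZT12 gave 7 of 22 (6.58% of all genes). Within 1 kb the regions gave 0 of 22 core clock genes (0.849% of all genes), and within 10 kb of the whole gene 1 of 22 (3.98%). At any distance they gave 1 of 22 (2.34% of all genes), through a site 23947 bp inside Hlf, a PAR-bZIP output factor (chromosome 11, 90363886 to 90364166, -log10 q 4.10, fold 3.06). Of 22 clock-linked regulators 3 had a region within 10 kb (1.5% of all genes), against 8 with a shared interval (2.23% of all genes). Within 1 kb 1 of 22 had a region (0.849% of all genes). The counts of regions are too small to read against these shares. The 3 with a region within 10 kb were Sirt1, Cipc and Klf11, a Kruppel-like factor, whose region lay 9511 bp from the TSS (-log10 q 2.26, fold 2.88). Klf11 also had other intervals within 10 kb, called in 6 libraries between them, while Sirt1 and Cipc had none.

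Metabolic genes with a region were few, and the list counts of 0 to 3 are too small to read against 1.5%. Of 25 genes of triglyceride and fatty acid synthesis 2 had one, Lpin1, a phosphatidate phosphatase that also acts with nuclear receptors (chromosome 12, 16589646 to 16589919, at -12 bp from the authors' TSS, -log10 q 7.41, fold 4.36), and Plin5, a coat protein of lipid droplets (6.72). Lpin1 was also the 1 of 25 genes of fatty acid oxidation and fasting. No other library had a peak within 10 kb of the Lpin1 region, and that of Plin5 lay 695 bp from a peak of female misaligned ZT0. In the list of glucose and insulin signalling, 2 of 28 genes had a region, Pck1, the rate-limiting enzyme of gluconeogenesis (5.51, 7259 bp from the TSS), and the insulin signalling kinase Akt2 (3.50). Pck1 had other intervals within 10 kb, called in both male misaligned libraries, in female misaligned ZT0 and in male control ZT12.

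Of 24 genes of bile acid, cytochrome P450 and xenobiotic metabolism 2 had a region, Nr0b2, the repressor SHP of bile acid synthesis (3.797, at -1192 bp), and the canalicular transporter Abcc2 (3.33). The Nr0b2 region lay 566 bp from a peak of female misaligned ZT0. Of 26 secreted and urea cycle genes 3 had one, Ahsg, the secreted fetuin-A (6.46), Ass1, argininosuccinate synthase of the urea cycle (4.69), and the apolipoprotein gene Apoa4 (2.19), against 1 with a shared interval. Both counts are too small to read against the shares of all genes, 1.5% with a region and 2.23% with a shared interval. The lists of glucocorticoid response (Errfi1, an inhibitor of EGF receptor signalling, 3.71), respiratory chain and mitochondrial ribosome (Ndufa6, 2.91) and the ubiquitin pathway (Ube2d3, 7.00) had 1 gene each. Oxidative stress had 2 of 16, Srxn1 (3.40) and mitochondrial superoxide dismutase Sod2 (2.95). In each case the value is -log10 q. The Errfi1 region stood over a local background of 18.5 fragments, 4.28 times the lowest of the list.

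The lists of cholesterol synthesis and uptake, liver transcription factors, heat shock and protein folding, inflammation and acute phase, sex-biased liver genes and chromatin regulators had 0 members with a region within 10 kb. Counts of 0, here and for the markers below, are too small to read against the 1.5% of all protein-coding genes with a region. For these 6 lists the shared intervals gave 2, 2, 1, 1, 2 and 5 genes, where 2.23% of all genes had one. A gene was counted only where it was the authors' nearest. Within 10 kb of the whole RefSeq gene, nearest or not, the regions gave 3, 0, 0, 1, 0 and 1 genes of these lists. Of all genes 3.98% had a region there, and these counts too are too small to read against that share. Of the markers of cell types, 1 of 10 for hepatocytes had a region (Ahsg), and 0 of 10 Kupffer and myeloid, 0 of 10 endothelial, 0 of 10 stellate, 0 of 8 cholangiocyte and 0 of 8 lymphocyte markers did. Within 10 kb of the whole gene it was 1 of 10 Kupffer and myeloid markers, with the other counts the same. Binding does not measure expression, so these counts do not show which cells the regions came from.

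**Figure D5:**
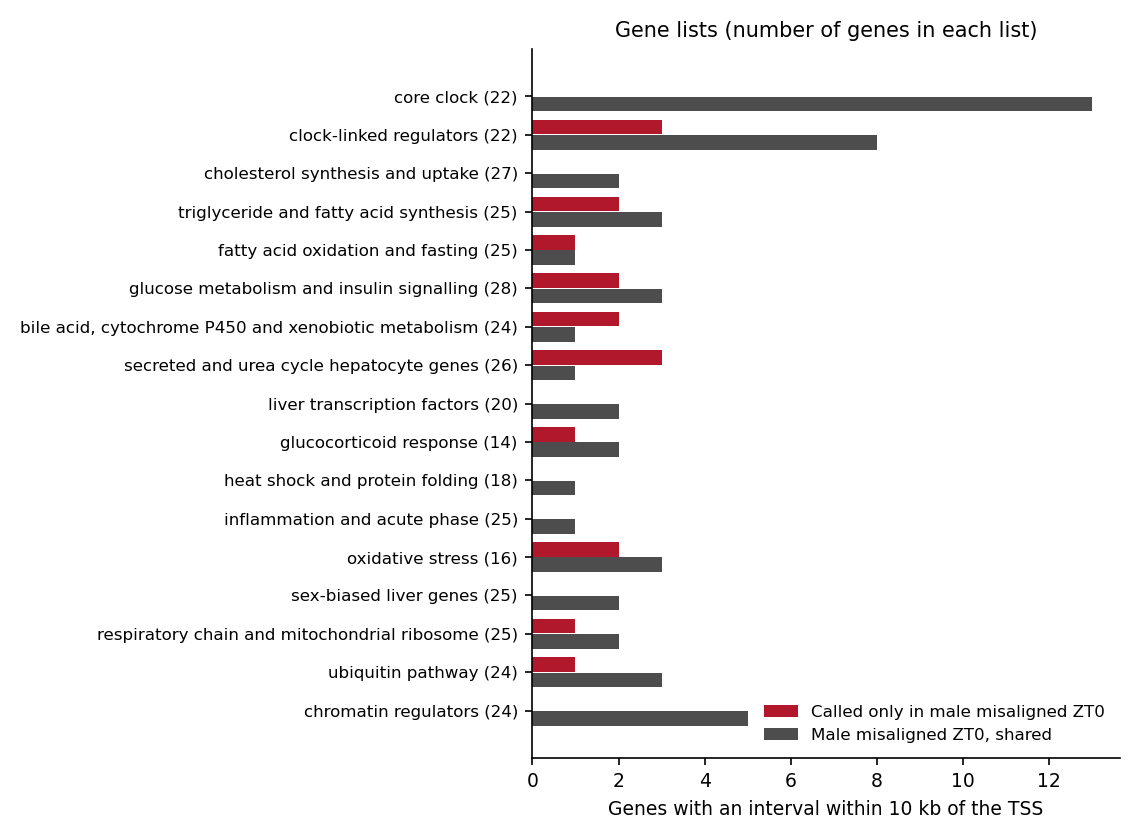
Number of genes of each list (x axis) with an interval within 10 kb of the TSS, for regions called only in male misaligned ZT0 (red, upper bar) and shared intervals of that library (grey, lower bar). List sizes are in parentheses, and core clock has 0 of 22 in red and 13 in grey. The rule itself parts red from grey, and no list was tested.

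The 807 regions were nearest to 783 genes, of which 20 had 2 regions and 2 had 3. Ces1f, a liver carboxylesterase gene, had 3 regions on chromosome 8, from 93252146 to 93252759 (-log10 q 7.57, fold 4.66), from 93277638 to 93277991 (3.26, 3.52) and from 93291893 to 93292225 (2.41, 3.38), with no peak of another library within 10 kb of any. It has close paralogs in the same cluster, so the reads there may be uncertain. Irf2bp2, a transcriptional corepressor gene, had 3 regions at 3865, -27733 and -62991 bp from its TSS (-log10 q 4.94, 4.43 and 3.58), and other intervals within 10 kb called in female misaligned ZT0, male misaligned ZT12 and male control ZT0. Only 2 regions had a local background of at least 5 times the lowest of the list, near Gm10232 (chromosome 17, 3013168 to 3013603, 5.01 times) and near Gm27878 (chromosome 4, 3064271 to 3064546, 7.72 times), against 25 of the shared intervals.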

How the data were processed

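Liver BMAL1 libraries were analysed from the authors' peak lists and merged table. Per the submitters' processing notes, the tools were BWA 0.7.17-r1188 and MACS2 2.2.7.1 and the build GRCm38. The q threshold and the use of the IgG libraries are not given in the sources used here, and IgG libraries were not analysed here. Per the file headers and values, the deposited lists give a score (10 times -log10 q), the fold enrichment as a ratio, and the p-value and q-value as -log10. The deposited table gives the calls, the libraries and peaks per interval, and a nearest gene. All 9986 peaks fell in an interval and the calls of all 7043 intervals matched the lists.

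Fragments and local background were recovered from fold and -log10 p (relative tolerance 0.0001) for 100% of the peaks, and the recovery and motif search were tested on simulated data. Genes used the authors' nearest TSS within 10 kb. RefSeq (GRCm38.p6) gave promoters and gene counts, and 1811 of 1811 overlapping opposite windows were reverse complements. Python 3.11.15, pandas 2.3.3 and scipy 1.17.1 were used. The regions and gene lists were chosen with earlier results of these data known. Genes named were the nearest to the 20 strongest regions and to the 10 strongest within 1 kb of a TSS. Core clock genes nearest a region, up to 4 of each list by -log10 q and genes with 3 regions were added. So were those of the weakest regions, of the strongest intervals called in 1 other library and of high background. Some genes of this rule are not reported here.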

Additional observations from a re-analysis of the deposited data

How the results depend on the processing

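The number of regions called only in male misaligned ZT0 (807) was 488 when -log10 q of at least 3 was asked in every list, and 1222 without the male misaligned ZT12 list. Without each of the other lists it was 807 to 857. It was 1132 with the other lists shortened to 1000 peaks, 706 with no other peak within 5 kb and 805 without high background. The share of the list called alone was 43.4% by interval and 50.7% when an overlap of 50% of both peaks was asked. The share of regions within 1 kb of the authors' TSS (27.5%) was 42.9% within 5 kb, 31.0% by the promoter class and 32.4% at -log10 q of at least 3, where the median fold was 3.79 in place of 3.44. The list entries with a region numbered 19 within 10 kb, 10 within 1 kb, 28 at any distance and 37 within 10 kb of the whole RefSeq gene. The windows with an E-box were 17.02%, 28.4% with CACGTT allowed and 61.7% for CANNTG. The cause of these differences was not tested. No paired analysis was possible because each group has 1 library. Depth is unknown, and a missing call does not show that BMAL1 was not bound.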

Other observations

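No region called only in male misaligned ZT0 lay on chromosome X or Y. A count of 0 of 807 allows a share of up to 0.372%, taken as 3 counts of the total, and the exact 95% upper bound is 0.456%. Chromosome X held 2 of 1053 shared intervals of that library (0.190%), 3 of 396 intervals called only in female misaligned ZT0 (0.758%, exact 95% interval 0.157 to 2.198) and 32 of 4106 called only in male misaligned ZT12 (0.779%, 0.534 to 1.10). It holds 4.41% of RefSeq protein-coding genes. Chromosome 11 held the most regions, 77 of 807 (9.54%), against 8.64% of shared intervals and 7.35% of protein-coding genes. Chromosome 12 held 5.45% of the regions, 4.27% of shared intervals and 3.10% of protein-coding genes. Differences between chromosomes were not tested.

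A region on chromosome 11 with its summit at 69662484, nearest Mpdu1 (-log10 q 5.52, fold 3.93), lay 559 bp from the start of the hairpin of Mir1934, the sole microRNA of the RefSeq table whose hairpin starts within 2000 bp of a summit.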
